A study of Homo sapiens with 8 samples.

Results

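The genes described here are 40 genes of the hypoxia response and of glycolysis, chosen by symbol: the subunits of the hypoxia-inducible factors (HIF) and their hydroxylases, well-known HIF target genes, glucose transporters, glycolytic enzymes and pyruvate dehydrogenase kinases. Of the 40, 38 had a probe set (a group of array probes summarised to 1 value) that the array annotation pairs with exactly 1 gene, among 18417 such genes measured in all. PGAM1 was present on probe sets shared with PGAM4 alone, and CA9 was not analysed here. Total RNA was profiled on Affymetrix human gene arrays, and all levels below are log2 values, so that a difference of 1 is a 2-fold change. The cells were HCT116, an established human colon cancer cell line, carrying either a short hairpin RNA named for CDK8 (shCDK8) or a control hairpin (shControl). Both lines were serum-starved for 40 h in McCoy's medium and harvested either then (starved) or after 30 min in the same medium with 10% fetal bovine serum (serum). This gave 4 groups of 2 arrays: starved shCDK8, starved shControl, serum shCDK8 and serum shControl. The labels name 1 hairpin per line and do not say whether a line is a clone or a pool, or whether the 2 arrays of a group came from separate cultures, so the p-values measure the spread between these arrays, which may be technical. The labels name no low-oxygen treatment, and oxygen was not a variable of the design.

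HIF is a heterodimer of an oxygen-labile alpha subunit and a stable beta subunit, ARNT. When oxygen is plentiful, prolyl hydroxylases of the EGLN family mark the alpha subunit for destruction; when oxygen falls, the dimer accumulates and binds short hypoxia response elements, whose core reads ACGTG or GCGTG. Its targets raise glucose uptake and glycolysis, divert pyruvate away from the mitochondria, and remodel mitochondria, matrix and vessels. Many colon cancer cells also run glycolysis at a high rate in normal oxygen. CDK8 is the kinase of the Mediator kinase module, and it has been described as a co-activator of HIF target genes in HCT116 cells under hypoxia.

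In the check of the targeted gene, its probe set, which the annotation also pairs with ADRA1B, read 7.09 and 6.99 in starved shCDK8 cells against 9.23 and 9.20 in starved shControl cells, and 7.04 and 7.06 in serum shCDK8 cells against 9.22 and 9.19 in serum shControl cells. The 2 arrays of a group correlated at 0.9972 to 0.9979, and array medians lay between 6.44 and 6.51. Some markers of epithelial cells differed between the lines, in both directions. The summed linear level of this list, which the brightest markers dominate, was, over 13 measured markers, 21610 to 22316 in starved shCDK8 cells against 18771 to 19120 in starved shControl cells, and 21781 to 22621 in serum shCDK8 cells against 19551 to 19585 in serum shControl cells. The median level of the 13 went the other way, at 8.80 to 8.86 in starved shCDK8 cells against 9.08 to 9.22 in starved shControl cells and 9.14 to 9.17 in serum shCDK8 cells against 9.30 to 9.33 in serum shControl cells, and the median change was -0.02 and -0.06. In starved shCDK8 cells KRT18 (0.55), KRT8 (0.44) and ELF3 (0.44) were higher and CLDN4 (-0.33) and KRT19 (-0.31) were lower, and after serum KRT18 (0.56) and KRT8 (0.42) were among 3 that were higher, with CLDN4 (-0.41) and KRT19 (-0.34) lower. The starved calls ended for ELF3 without either shCDK8 array or shControl array 2, for CLDN4 without shControl array 1 or shCDK8 array 2, and for KRT19 without shControl array 1 or either shCDK8 array (adjusted p 0.0512 to 0.0892), and the serum call of KRT19 ended without shControl array 2 (0.0518). The 10 mesenchymal markers summed to 910 to 929 in starved shCDK8 cells against 841 to 886 in starved shControl cells and to 960 to 982 in serum shCDK8 cells against 936 to 939 in serum shControl cells, and ACTA2 alone was higher (0.37 and 0.50; the starved call ended without any 1 of the 4 starved arrays, adjusted p 0.052 to 0.136). The 10 blood and endothelial markers summed to 488 to 506 in starved shCDK8 cells against 510 to 512 in starved shControl cells and to 471 to 500 in serum shCDK8 cells against 470 to 487 in serum shControl cells, and LYZ alone passed, after serum (0.29), a call that ended without any 1 of the 4 serum arrays or of the starved shCDK8 arrays (adjusted p 0.06 to 0.232). No marker is listed at 0 on these arrays, where background keeps every probe set above it, and the part of these differences in the results below was not tested.

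The promoter sequences of the members with the largest changes between the lines in starved cells are shown first, to set the searched motifs beside the genes. HIF also binds distal elements, and no binding was measured here. They are the 3 largest falls and the 2 rises among members with a promoter in the RefSeq table (build GRCh38.p14), each as the 250 bases before the start site on the gene's strand, and ANKRD37 was added after its values were seen. Capitals mark ACGTG or GCGTG on either strand, so that the other strand reads CACGT or CACGC.
P4HA1: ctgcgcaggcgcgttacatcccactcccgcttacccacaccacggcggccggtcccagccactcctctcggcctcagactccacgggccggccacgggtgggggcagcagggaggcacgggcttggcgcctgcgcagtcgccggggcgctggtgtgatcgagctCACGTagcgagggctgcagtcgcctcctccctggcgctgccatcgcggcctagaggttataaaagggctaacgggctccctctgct
BNIP3: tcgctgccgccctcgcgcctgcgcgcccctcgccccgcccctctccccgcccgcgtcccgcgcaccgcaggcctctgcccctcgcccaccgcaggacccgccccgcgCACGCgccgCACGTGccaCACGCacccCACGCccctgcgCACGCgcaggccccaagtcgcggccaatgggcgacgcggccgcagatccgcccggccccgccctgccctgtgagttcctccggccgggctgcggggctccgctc
PDK1: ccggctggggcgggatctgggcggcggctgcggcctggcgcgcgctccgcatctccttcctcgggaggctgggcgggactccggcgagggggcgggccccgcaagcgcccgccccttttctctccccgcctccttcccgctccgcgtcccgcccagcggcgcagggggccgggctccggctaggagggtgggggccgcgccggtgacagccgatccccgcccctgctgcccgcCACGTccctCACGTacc
SLC2A1: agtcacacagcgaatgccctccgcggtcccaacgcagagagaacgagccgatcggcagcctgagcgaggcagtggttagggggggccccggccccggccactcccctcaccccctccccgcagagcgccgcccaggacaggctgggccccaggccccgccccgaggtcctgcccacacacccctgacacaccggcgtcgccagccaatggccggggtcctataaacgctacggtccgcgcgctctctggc
P4HA2: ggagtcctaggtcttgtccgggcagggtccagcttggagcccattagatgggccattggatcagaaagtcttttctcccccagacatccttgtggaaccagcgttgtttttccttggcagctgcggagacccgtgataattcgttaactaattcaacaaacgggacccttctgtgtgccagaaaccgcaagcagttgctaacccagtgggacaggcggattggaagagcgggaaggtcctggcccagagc
ANKRD37: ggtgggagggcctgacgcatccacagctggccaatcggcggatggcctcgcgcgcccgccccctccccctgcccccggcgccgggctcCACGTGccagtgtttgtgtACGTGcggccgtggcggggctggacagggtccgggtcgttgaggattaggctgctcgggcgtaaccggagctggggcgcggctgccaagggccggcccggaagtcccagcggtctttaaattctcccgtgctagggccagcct
The P4HA1 promoter (chr10:73096867-73097116, minus strand) held 1 ACGTG. The BNIP3 promoter (chr10:131981924-131982173, minus strand) held 2 ACGTG, which are the 2 strands of one CACGTG, and 4 GCGTG. PDK1 has 2 annotated starts: the window shown (chr2:172555840-172556089, plus strand) held 2 ACGTG, and the other (chr2:172555123-172555372, plus strand) held neither motif. No match lay in these windows of SLC2A1 (chr1:42958869-42959118, minus strand) or P4HA2 (chr5:132227092-132227341, minus strand), the 2 members that were higher in shCDK8 cells, which says only that these letters are not in these windows. The ANKRD37 promoter (chr4:185396591-185396840, plus strand) held 3 ACGTG, of which a pair are the 2 strands of one CACGTG. Over all members with a window (33 genes), 37 of 53 windows (69.8%) held either motif. Of all promoter windows in the RefSeq table, 15172 of 35116 (43.2%) did. Those windows belong to 27305 genes, a wider set than the genes measured on the arrays, and the members are compared with that set here. The members' windows were also richer in G and C than all promoter windows, with a median of 68.8% against 58.0%. They held more CG pairs, which both motifs contain, with a median of 25 against 11. The part of base composition in the motif shares was not tested. Among members lower in shCDK8 cells at both times, 18 of 21 windows (85.7%, 14 genes) held a motif, and among members that passed at neither time, 18 of 28 (64.3%, 15 genes). A gene with several starts enters these counts more than once, and HK1 held a motif in only 1 of its many windows. By gene the sets were alike: ARNT alone of the lower genes and PKM alone of the others held no motif in any window. These counts are a description of letters, and a match is not a bound site.

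The first question was which of these genes differed between shCDK8 and shControl cells. Most of those that passed the test were lower in shCDK8 cells, by less than 2-fold with the exception of P4HA1, and all 19 that passed in starved cells also passed after serum. P4HA1 and BNIP3 had the largest falls, the glucose transporter SLC2A3, the kinase PDK1 and several glycolytic enzymes were also lower, and SLC2A1, the main glucose transporter of many tumour cells, was 3.43-fold higher. In starved cells 17 of 38 members (44.7%) were lower and 2 were higher, at a limma adjusted p below 0.05, against 6.28% lower and 7.13% higher among all genes measured. After serum 19 of 38 (50.0%) were lower and 2 were higher, against 6.54% lower and 7.70% higher among all genes. The members were chosen with earlier results of these data known. The shares are therefore a description, and no test of the list against all genes was made. The median change of the 38 members was -0.20 in starved cells and -0.22 after serum, against -0.01 over all genes at both times. Of the members, 17 were lower at both times and 2 were higher at both times, against 4.53% and 5.66% of all genes, and ANKRD37 and EGLN3 passed after serum and not in starved cells, a contrast that the test of the difference did not bear out (adjusted p = 0.73 and 1). The starved and serum comparisons use different arrays of the same 2 lines, so agreement between them is not evidence from a further hairpin or line. The values are relative within each array, and in bulk RNA fewer cells that express a gene and less of its RNA per cell cannot be told apart.

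**Figure D1:**
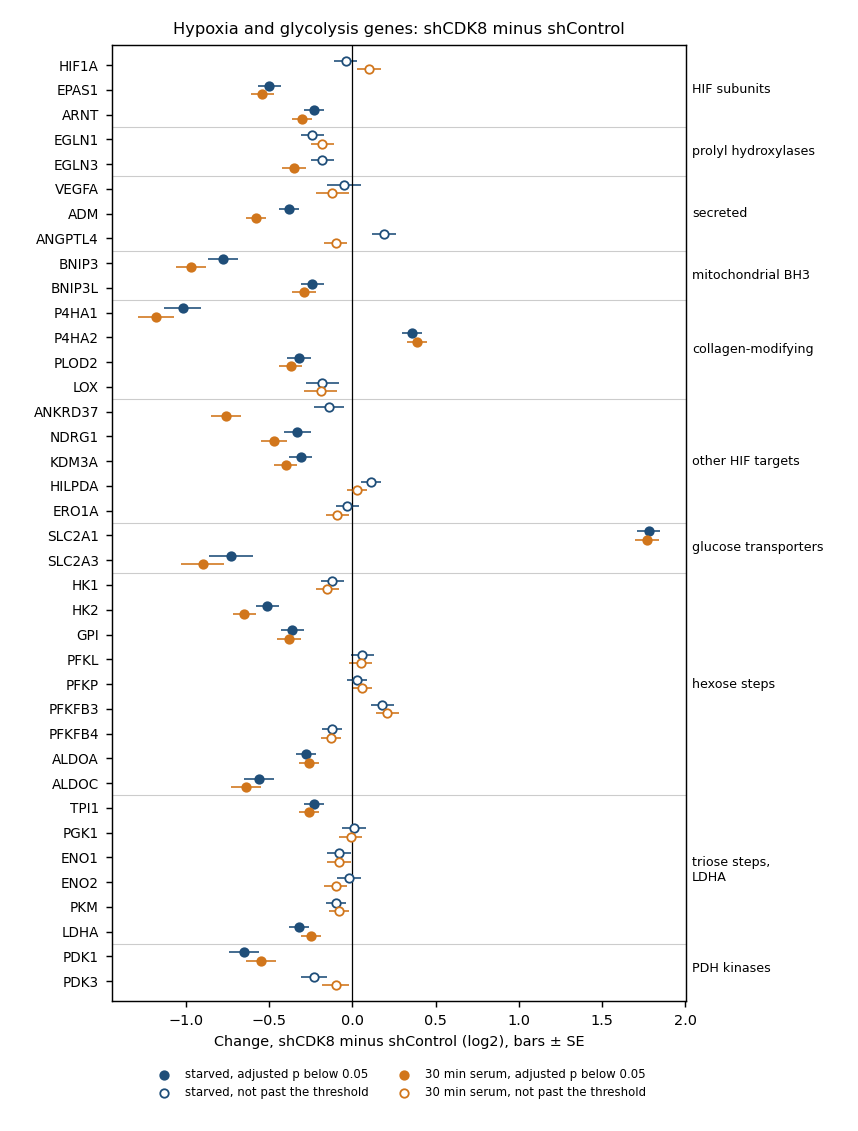
Change of each measured member in shCDK8 against shControl cells (log2, horizontal axis) in starved and in serum-treated cells, grouped by role, with bars of 1 SE to each side and filled points for changes past the threshold. SLC2A1 stands at 1.78 and 1.77, far to the right of P4HA2 at 0.36 and 0.39, and P4HA1 has the largest falls, at -1.02 and -1.18.

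Among the HIF subunits, EPAS1, the alpha subunit of HIF-2, and ARNT were lower in shCDK8 cells, and HIF1A, the alpha subunit of HIF-1, did not pass the test. EPAS1 read 8.36 and 8.23 in starved shCDK8 cells against 8.77 and 8.83 in starved shControl cells, and 8.35 and 8.33 in serum shCDK8 cells against 8.86 and 8.91 in serum shControl cells. All 4 shCDK8 arrays lay below all 4 shControl arrays, and the changes were -0.50 ± 0.07 (SE, 1.42-fold lower, limma adjusted p = 0.00114) in starved cells and -0.54 ± 0.07 (adjusted p = 0.000715) after serum. ARNT read 8.74 and 8.74 in starved shCDK8 cells against 8.95 and 9.0 in starved shControl cells, and 8.68 and 8.72 in serum shCDK8 cells against 8.96 and 9.05 in serum shControl cells. Its arrays did not overlap either, with smaller changes of -0.23 ± 0.06 (limma adjusted p = 0.0416) and -0.30 ± 0.06 (adjusted p = 0.0122). HIF1A read 10.28 and 10.33 in starved shCDK8 cells against 10.40 and 10.28 in starved shControl cells, and 10.37 and 10.35 in serum shCDK8 cells against 10.27 and 10.25 in serum shControl cells. The starved arrays overlapped, and after serum both shCDK8 arrays lay slightly above both shControl arrays (0.10, limma adjusted p = 0.414). The 95% intervals of the change ran from -0.19 to 0.12 in starved cells and from -0.05 to 0.25 after serum. HIF1A is controlled mainly through the stability of its protein, which these arrays do not measure.

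Of the prolyl hydroxylases that tag HIF alpha subunits, EGLN3, itself a HIF target, read 6.77 and 6.72 in starved shCDK8 cells against 7.01 and 6.84 in starved shControl cells, and 6.65 and 6.64 in serum shCDK8 cells against 6.94 and 7.03 in serum shControl cells. The arrays of the lines did not overlap at either time, and the change passed after serum and not in starved cells (-0.35 ± 0.07, limma adjusted p = 0.0128; in starved cells -0.18, adjusted p = 0.161). EGLN1, the main oxygen sensor among them, read 8.60 and 8.75 in starved shCDK8 cells against 8.95 and 8.88 in starved shControl cells, and its change of -0.24 missed the threshold (95% interval -0.40 to -0.08, limma adjusted p = 0.0526). It passed in starved cells under 4 other settings, among them an intensity trend in the variance model (adjusted p = 0.0139). After serum EGLN1 stood at -0.18 (adjusted p = 0.13).

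Of the secreted factors, ADM, the vasodilator peptide adrenomedullin, was lower in shCDK8 cells at both times. It read 9.44 and 9.44 in starved shCDK8 cells against 9.87 and 9.78 in starved shControl cells, and 9.64 and 9.70 in serum shCDK8 cells against 10.24 and 10.26 in serum shControl cells. The gap was wider after serum (-0.58 ± 0.06, 1.5-fold, limma adjusted p = 0.000315) than before it (-0.38 ± 0.06, 1.3-fold, adjusted p = 0.00364), a difference that is tested with the serum responses below. VEGFA, the vascular growth factor, and ANGPTL4, an inhibitor of lipoprotein lipase, did not pass. VEGFA read 8.06 and 7.92 in starved shCDK8 cells against 7.96 and 8.12 in starved shControl cells, with overlapping arrays and a change of -0.05 (95% interval -0.27 to 0.17), and stood at -0.12 after serum (-0.34 to 0.11). ANGPTL4 stood at 0.19 in starved cells (95% interval 0.03 to 0.36, adjusted p = 0.135) and at -0.10 after serum (-0.27 to 0.07).

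BNIP3 and BNIP3L encode mitophagy receptors of the outer mitochondrial membrane and are known HIF targets. BNIP3 read 8.19 and 8.30 in starved shCDK8 cells against 9.13 and 8.92 in starved shControl cells, and 8.07 and 8.16 in serum shCDK8 cells against 9.13 and 9.04 in serum shControl cells. The lowest shControl array lay above the highest shCDK8 array by more than the spread within any group, and BNIP3 was 1.72-fold lower in starved cells (-0.78 ± 0.09, limma adjusted p = 0.000315) and 1.96-fold lower after serum (-0.97 ± 0.09, adjusted p = 7.45e-05). BNIP3L read 10.04 and 10.10 in starved shCDK8 cells against 10.37 and 10.25 in starved shControl cells, and 10.06 and 10.01 in serum shCDK8 cells against 10.32 and 10.34 in serum shControl cells. Its arrays did not overlap, but the changes were smaller, at -0.24 ± 0.07 (limma adjusted p = 0.0479) and -0.29 ± 0.07 (adjusted p = 0.0185).

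The enzymes that modify collagen moved in opposite directions. P4HA1 and P4HA2 encode alternative catalytic subunits of collagen prolyl 4-hydroxylase, PLOD2 encodes a lysyl hydroxylase of collagen, and LOX encodes an oxidase that cross-links it. P4HA1 read 8.61 and 8.68 in starved shCDK8 cells against 9.81 and 9.53 in starved shControl cells, and 8.59 and 8.69 in serum shCDK8 cells against 9.97 and 9.68 in serum shControl cells. It had the largest fall of the measured members, 2.03-fold in starved cells (-1.02 ± 0.11, limma adjusted p = 0.000335) and 2.27-fold after serum (-1.18 ± 0.11, adjusted p = 0.000128). P4HA2 read 8.61 and 8.60 in starved shCDK8 cells against 8.25 and 8.24 in starved shControl cells, and 8.54 and 8.58 in serum shCDK8 cells against 8.18 and 8.15 in serum shControl cells. All its shCDK8 arrays lay above its shControl arrays, with rises of 0.36 ± 0.06 (1.29-fold, limma adjusted p = 0.00366) and 0.39 ± 0.06 (1.31-fold, adjusted p = 0.0023). PLOD2 was lower, at 8.36 and 8.32 in starved shCDK8 cells against 8.71 and 8.61 in starved shControl cells and 8.35 and 8.34 in serum shCDK8 cells against 8.66 and 8.78 in serum shControl cells (-0.32 ± 0.07, limma adjusted p = 0.0142, and -0.37 ± 0.07, adjusted p = 0.00643). LOX was dim, with all 8 arrays between 3.91 and 4.29, and did not pass at either time. Its arrays overlapped in starved cells (-0.18, adjusted p = 0.324) and not after serum (-0.19, adjusted p = 0.302).

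NDRG1, a stress-inducible gene, KDM3A, a histone demethylase, and ANKRD37, an ankyrin repeat protein, are further HIF targets. NDRG1 read 9.42 and 9.56 in starved shCDK8 cells against 9.89 and 9.75 in starved shControl cells, and 9.49 and 9.55 in serum shCDK8 cells against 9.99 and 10.00 in serum shControl cells. KDM3A read 8.37 and 8.49 in starved shCDK8 cells against 8.80 and 8.69 in starved shControl cells, and 8.53 and 8.49 in serum shCDK8 cells against 8.91 and 8.90 in serum shControl cells. Neither gene's arrays overlapped, and both were lower in shCDK8 cells, NDRG1 by -0.33 ± 0.08 (limma adjusted p = 0.0173) and -0.47 ± 0.08 (adjusted p = 0.00262) and KDM3A by -0.31 ± 0.07 (adjusted p = 0.0178) and -0.40 ± 0.07 (adjusted p = 0.00509). ANKRD37 read 6.91 and 6.71 in starved shCDK8 cells against 7.01 and 6.89 in starved shControl cells, where the arrays overlapped (-0.14, adjusted p = 0.376). After serum it read 7.01 and 7.10 in shCDK8 cells against 7.88 and 7.74 in shControl cells, with no overlap and a 1.69-fold fall (-0.76 ± 0.09, limma adjusted p = 0.000471). HILPDA, a lipid droplet protein, and ERO1A, an oxidase of the endoplasmic reticulum, did not pass, with changes of 0.11 and -0.03 in starved cells and 0.03 and -0.09 after serum, and 95% intervals within -0.24 to 0.25.

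The glucose transporters went in opposite directions. SLC2A1 (GLUT1) read 10.84 and 10.87 in starved shCDK8 cells against 9.08 and 9.07 in starved shControl cells, and 10.89 and 10.96 in serum shCDK8 cells against 9.08 and 9.22 in serum shControl cells. The lines were far apart on every array, with SLC2A1 3.43-fold higher in starved shCDK8 cells (1.78 ± 0.07, limma adjusted p = 3.9e-07) and 3.41-fold higher after serum (1.77 ± 0.07, adjusted p = 3.44e-07). SLC2A3 (GLUT3) read 7.17 and 7.38 in starved shCDK8 cells against 7.98 and 8.03 in starved shControl cells, and 7.33 and 7.77 in serum shCDK8 cells against 8.49 and 8.41 in serum shControl cells. The arrays did not overlap, with a spread in serum shCDK8 cells (SD 0.31) wider than in the other groups, and SLC2A3 was lower by 1.66-fold (-0.73 ± 0.13, limma adjusted p = 0.00487) and 1.87-fold (-0.90 ± 0.13, adjusted p = 0.00146).

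**Figure D2:**
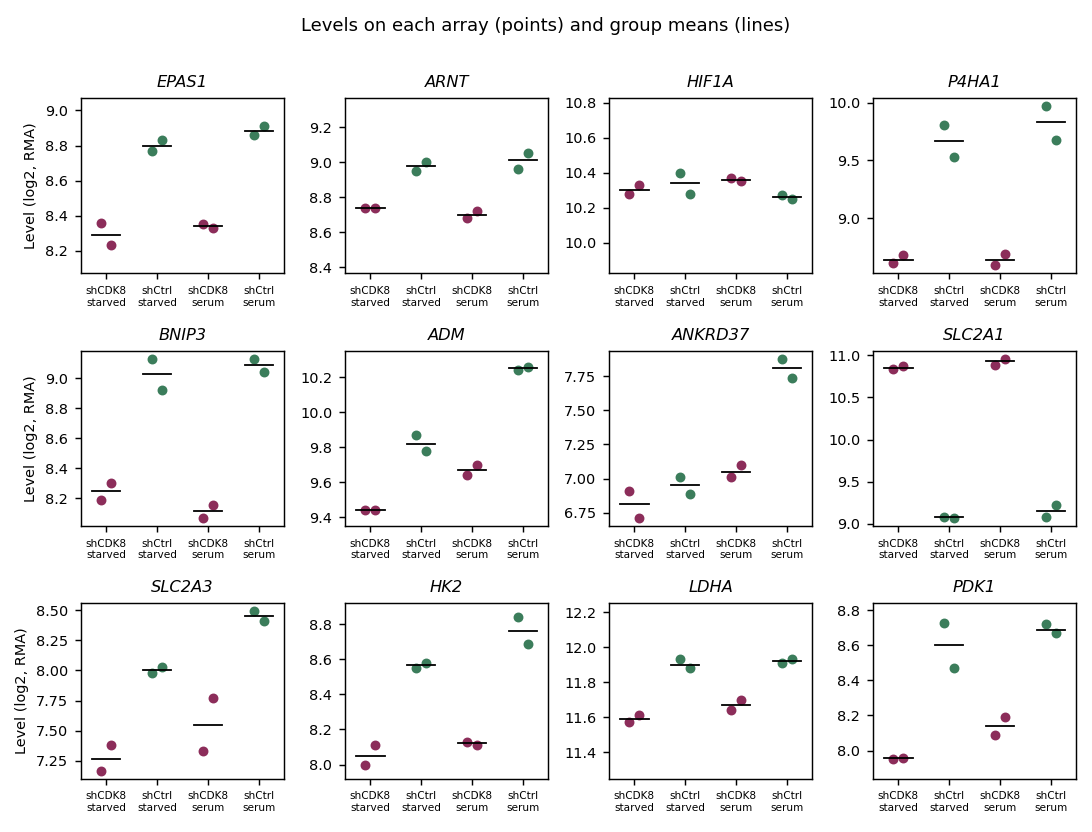
Level of selected members on each array (log2, vertical axis; axes differ between panels) in the 4 groups, with points for arrays and lines for group means. SLC2A1 averages 10.85 in starved shCDK8 cells against 9.08 in starved shControl cells, and ANKRD37 stands apart in serum shControl cells, at 7.88 and 7.74.

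Along glycolysis, hexokinase HK2, the inducible form that phosphorylates glucose, was lower in shCDK8 cells, and HK1, the widely expressed form, did not pass. HK2 read 8.0 and 8.11 in starved shCDK8 cells against 8.55 and 8.58 in starved shControl cells, and 8.13 and 8.11 in serum shCDK8 cells against 8.84 and 8.69 in serum shControl cells. The lines did not overlap, with falls of 1.43-fold (-0.51 ± 0.07, limma adjusted p = 0.00144) and 1.57-fold (-0.65 ± 0.07, adjusted p = 0.000369). HK1 stood at -0.12 (95% interval -0.28 to 0.04) and -0.15 (-0.31 to 0.01). GPI, which converts glucose phosphate to fructose phosphate, read 11.24 and 11.21 in starved shCDK8 cells against 11.63 and 11.55 in starved shControl cells, and 11.15 and 11.23 in serum shCDK8 cells against 11.57 and 11.58 in serum shControl cells. It was lower by about the same amount at both times (-0.36 ± 0.07, limma adjusted p = 0.00546; -0.38 ± 0.07, adjusted p = 0.00404). The phosphofructokinase subunits PFKL and PFKP, which form the committed step, did not pass, with changes between 0.03 and 0.06 and 95% intervals within -0.11 to 0.20. PFKFB3 and PFKFB4, which make the activator of phosphofructokinase, did not pass either. PFKFB3 stood at 0.18 (adjusted p = 0.104) and 0.21 (adjusted p = 0.0612; 0.037 with the intensity trend), and PFKFB4 at -0.12 (adjusted p = 0.281) and -0.13 (adjusted p = 0.219).

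The aldolases, which split the fructose bisphosphate, were lower. ALDOA read 8.65 and 8.71 in starved shCDK8 cells against 8.99 and 8.94 in starved shControl cells, and 8.69 and 8.64 in serum shCDK8 cells against 8.91 and 8.95 in serum shControl cells (-0.28 ± 0.06, limma adjusted p = 0.0194; -0.26 ± 0.06, adjusted p = 0.0233). ALDOC read 9.35 and 9.30 in starved shCDK8 cells against 9.94 and 9.84 in starved shControl cells, and 9.05 and 9.32 in serum shCDK8 cells against 9.87 and 9.78 in serum shControl cells. ALDOC had the larger falls, of 1.48-fold (-0.56 ± 0.09, limma adjusted p = 0.00329) and 1.56-fold (-0.64 ± 0.09, adjusted p = 0.00156). TPI1, the triose phosphate isomerase, read 11.60 and 11.63 in starved shCDK8 cells against 11.87 and 11.82 in starved shControl cells, and 11.54 and 11.56 in serum shCDK8 cells against 11.80 and 11.82 in serum shControl cells. Its small falls passed at both times, with no overlap of arrays (-0.23, limma adjusted p = 0.0393; -0.26, adjusted p = 0.0195).

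The later steps of the pathway mostly did not pass. PGK1, ENO1, ENO2 and PKM, which carry triose phosphates on to pyruvate, had changes between -0.10 and 0.01 at both times, with 95% intervals within -0.26 to 0.16. The 5 probe sets shared by PGAM1 and PGAM4 cannot be assigned to either mutase, and 2 of the 5 carry identical values. They were fitted separately, with the probe sets without a single gene. Changes were -0.23 to -0.28 in starved cells (limma unadjusted p 0.00606 to 0.0163, adjusted p 0.313 to 0.419). After serum they were -0.27 to -0.31 (limma unadjusted p 0.00347 to 0.00754, adjusted p 0.224 to 0.304). This adjustment ran over other probe sets, so its values cannot be set beside the members' adjusted p. LDHA, which turns pyruvate into lactate, read 11.57 and 11.61 in starved shCDK8 cells against 11.93 and 11.88 in starved shControl cells, and 11.64 and 11.70 in serum shCDK8 cells against 11.91 and 11.93 in serum shControl cells. It was lower at both times (-0.32 ± 0.06, limma adjusted p = 0.00933; -0.25 ± 0.06, adjusted p = 0.0259).

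Pyruvate dehydrogenase kinases switch off the entry of pyruvate into the citric acid cycle, and PDK1 is the HIF-inducible one best known. PDK1 read 7.95 and 7.96 in starved shCDK8 cells against 8.73 and 8.47 in starved shControl cells, and 8.09 and 8.19 in serum shCDK8 cells against 8.72 and 8.67 in serum shControl cells. All its shCDK8 arrays lay below its shControl arrays, with falls of 1.56-fold (-0.65 ± 0.09, limma adjusted p = 0.00115) and 1.47-fold (-0.55 ± 0.09, adjusted p = 0.00273). PDK3 read 6.69 and 6.91 in starved shCDK8 cells against 7.08 and 6.97 in starved shControl cells and did not pass (-0.23, adjusted p = 0.121; after serum -0.10, adjusted p = 0.505).

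Among the smaller changes, calls near the threshold ended when 1 array was left out. A left-out serum array does not alter a starved change itself, only the estimate of the spread that all groups share. In starved cells the falls of ARNT, BNIP3L and TPI1 ended without any 1 of the 8 arrays (limma adjusted p 0.0553 to 0.214), that of ALDOA without any 1 of the 4 starved arrays (0.0543 to 0.114), and that of PLOD2 without shControl array 1 or either shCDK8 array (0.054 to 0.0892). Those of NDRG1, KDM3A and LDHA ended without shControl array 1 or shCDK8 array 1 (0.0564 to 0.122), and without either of these arrays 9 members were lower in place of 17 (23.7%), when the share over all genes was also smaller, at 3.56% and 3.19%. After serum the falls of BNIP3L, ALDOA, TPI1 and LDHA ended without any 1 of the 4 serum arrays (limma adjusted p 0.0552 to 0.14), that of ARNT without shCDK8 array 1 or shControl array 2 (0.0713 and 0.103), that of EGLN3 without these or shCDK8 array 2 (0.0568 to 0.101), and that of PLOD2 without shControl array 2 (0.0635). Without serum shControl array 2, 12 members were lower in place of 19 (31.6%, against 3.23% of all genes). The calls of EPAS1, ADM, BNIP3, P4HA1, P4HA2, SLC2A1, SLC2A3, HK2, GPI, ALDOC and PDK1 held at both times whichever array was left out. A test against a minimum change of 1.5-fold passed SLC2A1 in starved cells, and SLC2A1 and P4HA1 after serum, and no other member.

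The next question was how the members responded to 30 min of serum in each line. Few moved. In shControl cells ANKRD37 and ADM rose, in shCDK8 cells no member passed, and no member's response was shown to differ between the lines. In shControl cells 2 of 38 members (5.26%) rose and 0 fell, against 0.424% higher and 0.0380% lower among all genes; at an unadjusted p below 0.05, 6 members (15.8%) were higher and 1 (2.63%) was lower, against 3.48% and 5.54% of all genes. In shCDK8 cells 0 of 38 passed in limma's test, against 0.250% higher and 0.00543% lower among all genes; at an unadjusted p below 0.05, ADM and ANKRD37 (5.26%) were higher and HILPDA (2.63%) lower, shares near or under the 4.44% and 5.15% of all genes. The median change of the members with serum was 0.00 in shCDK8 cells and 0.03 in shControl cells. Of the epithelial markers, ELF3 (0.60) and CLDN4 (0.41) rose with serum in shControl cells (limma adjusted p = 0.0281 and 0.0496), calls that ended for ELF3 without any 1 of the shControl or starved shCDK8 arrays (0.0611 to 0.259) and for CLDN4 without any 1 of the 8 arrays (0.0744 to 0.345). In shCDK8 cells ELF3 stood at 0.44 and CLDN4 at 0.33 (limma adjusted p = 0.175 and 0.179), and neither difference between the lines passed. Both lines share the same short time, at which genes induced slowly would not yet have changed.

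ANKRD37 read 7.01 and 7.10 in serum shCDK8 cells against 6.91 and 6.71 in starved shCDK8 cells, and 7.88 and 7.74 in serum shControl cells against 7.01 and 6.89 in starved shControl cells. It rose 1.82-fold in shControl cells (0.86 ± 0.09, limma adjusted p = 0.00214), and in shCDK8 cells the change was 0.25 ± 0.09 (adjusted p = 0.469). The difference between the responses was -0.61 ± 0.13 (95% interval -0.90 to -0.33), with an unadjusted p of 0.000792 and a limma adjusted p of 0.73 over all genes, so it did not pass. ADM rose 1.35-fold in shControl cells (0.43 ± 0.06, limma adjusted p = 0.0203), with a change of 0.23 ± 0.06 in shCDK8 cells (adjusted p = 0.383). The difference between its responses was -0.20 (95% interval -0.40 to 0.01). Without any 1 of the 4 shControl arrays the rise of ADM no longer passed (adjusted p 0.0691 to 0.193), which left ANKRD37 as the 1 member that rose.

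The other members showed no change with serum past the threshold. ANGPTL4 stood at 0.07 in shCDK8 cells (adjusted p = 0.774) and 0.37 in shControl cells (adjusted p = 0.107), with a difference of -0.29 (95% interval -0.53 to -0.06, unadjusted p = 0.0204). SLC2A3 stood at 0.27 in shCDK8 cells (adjusted p = 0.539) and 0.45 in shControl cells (adjusted p = 0.341). HILPDA, the member with the lowest adjusted p in shCDK8 cells, stood at -0.28 there (adjusted p = 0.219) and at -0.20 in shControl cells (adjusted p = 0.401). SLC2A1 and P4HA1, the members furthest apart between the lines, had changes with serum of 0.07 and 0.00 in shCDK8 cells and 0.08 and 0.16 in shControl cells. Over all genes 0% passed the test of the difference in response in either direction (0 higher and 0 lower), and 703 genes (3.82%) had an unadjusted p below 0.05, against 2 of 38 members (ANKRD37 and ANGPTL4). With the intensity trend 7 genes passed, none of them a member.

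**Figure D3:**
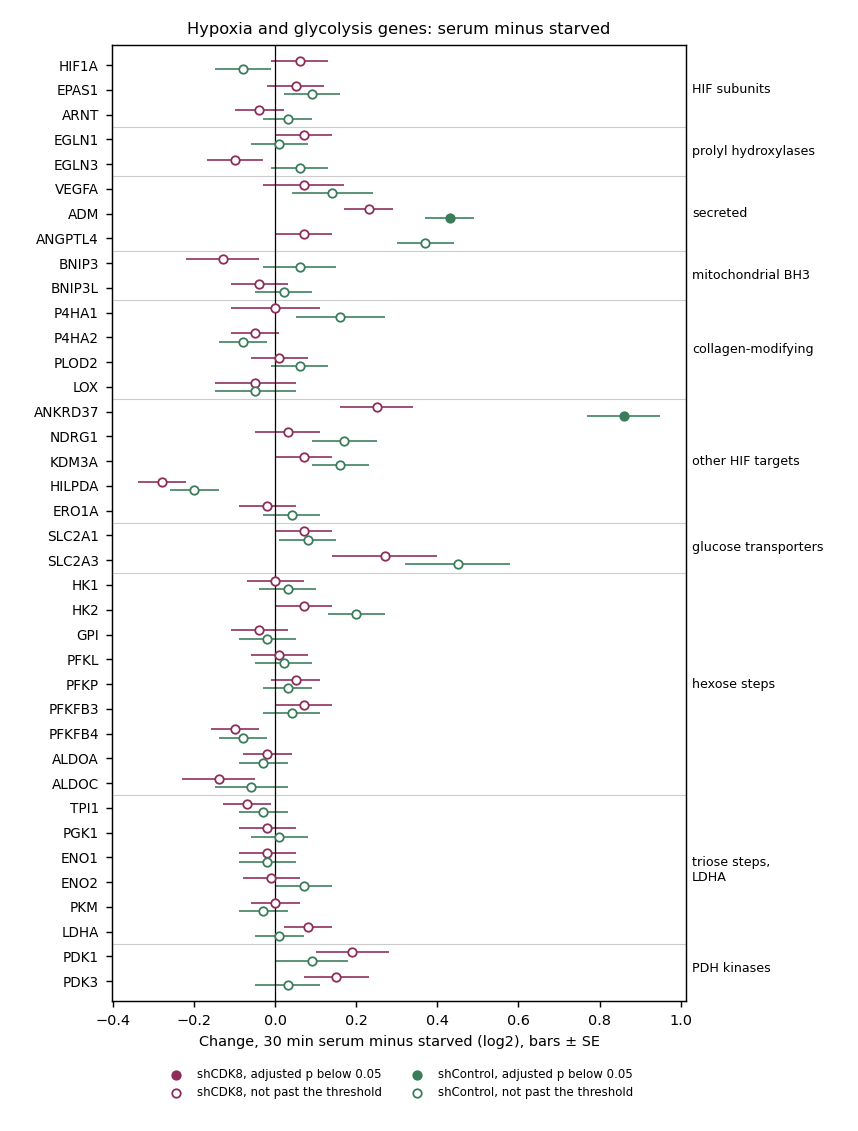
Change of each measured member after 30 min of serum against starved cells (log2, horizontal axis) in shCDK8 and in shControl cells, grouped by role, with bars of 1 SE to each side and filled points for changes past the threshold. The 2 filled points are ADM at 0.43 and ANKRD37 at 0.86, both in shControl cells.

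Genes around these pathways were counted in 6 further lists, and whether their shares differ from those of the members was not tested. Of 11 other measured genes of oxygen sensing, ARNT2, a relative of ARNT, was higher in starved shCDK8 cells (0.58 ± 0.08, limma adjusted p = 0.00161) and after serum (0.83 ± 0.08, adjusted p = 0.00017). That is 9.09% of the 11 at each time, near the 7.13% and 7.70% of all genes. None of the 11 was lower in starved cells. After serum RBX1 (-0.31) and CUL2 (-0.26), parts of the ubiquitin ligase that acts on hydroxylated HIF, were lower (18.2%, against 6.54% of all genes). The RBX1 call ended without serum shControl array 1 or shCDK8 array 1 (limma adjusted p 0.0739 and 0.0534), and the CUL2 call without any 1 of the 4 serum arrays or of the starved shCDK8 arrays (0.0577 to 0.208). With serum, CITED2, which competes with HIF for a co-activator, rose in shCDK8 cells (0.65 ± 0.10, limma adjusted p = 0.0435), a call that ended without any 1 array other than serum shCDK8 array 1. In shControl cells CITED2 stood at 0.31 (limma adjusted p = 0.422), and its difference between the lines did not pass. Of 44 further measured hypoxia-inducible genes, 4 were higher (9.09%) and 3 lower (6.82%) in starved shCDK8 cells, with a median change of 0.02. The shares of all genes were near these, at 7.13% higher and 6.28% lower. After serum 5 were higher and 5 lower (11.4% each, against 7.70% and 6.54% of all genes), with a median of 0.04. KLF6, a transcription factor, was 1.94-fold higher in starved cells and 1.95-fold higher after serum, and TFRC, the transferrin receptor, was 1.89-fold and 1.87-fold lower. TGFA, an epidermal growth factor receptor ligand, was higher (0.55 and 0.63), as was KDM5B, a histone demethylase (0.51 and 0.49). IGFBP3 was also higher in starved cells, where GBE1 and MET were lower. After serum KDM4B was also higher, and TMEM45A, DDIT4 (-0.47), GBE1 and MET were lower. The DDIT4 call after serum ended without serum shControl array 1 or shCDK8 array 1. EDN1, the vasoconstrictor endothelin, was higher after serum (0.67 ± 0.17, limma adjusted p = 0.0248), a call that ended without either serum shControl array or serum shCDK8 array 2 (0.0816 to 0.126). With serum BHLHE40, a transcriptional repressor, rose in shCDK8 cells (1.28 ± 0.11, limma adjusted p = 0.000702) and in shControl cells (1.64 ± 0.11, adjusted p = 6.92e-05), and KLF6 rose in both (1.04 in shCDK8 and 1.03 in shControl cells). DDIT4, an inhibitor of mTORC1 signalling, rose in shControl cells (0.65 ± 0.09, limma adjusted p = 0.0149), a call that ended without either serum shControl array or starved shControl array 2. In shCDK8 cells DDIT4 stood at 0.46 (limma adjusted p = 0.135), and its difference between the lines did not pass.

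Of 23 other measured genes of glycolysis and sugar or lactate transport, 2 were higher (8.7%) and 1 lower (4.35%) in shCDK8 cells at each time. Among all genes 7.13% and 7.70% were higher and 6.28% and 6.54% lower. The median change of the 23 was -0.02 in starved cells and -0.05 after serum. TIGAR, a phosphatase that lowers the activator of phosphofructokinase, was higher (0.78 ± 0.07 in starved cells, limma adjusted p = 7.99e-05, and 0.82 after serum), as was SLC2A12, a further glucose transporter (0.71 and 0.86). SLC16A7, a monocarboxylate carrier, was lower (-0.34 at both times), a call that ended without any 1 of the 4 starved arrays in starved cells (adjusted p 0.0524 to 0.0739) and without serum shControl array 2 or shCDK8 array 2 after serum (0.0916 and 0.0837). Of 27 measured genes of pyruvate entry and the citric acid cycle, 7 were lower (25.9%, against 6.28% of all genes) and 1 was higher in starved shCDK8 cells, with a median of -0.12, and 8 were lower (29.6%, against 6.54%) and 1 higher after serum, with a median of -0.10. MPC2, a subunit of the mitochondrial pyruvate carrier, was lower (-0.54 and -0.53), a call that ended without starved shControl array 1 in starved cells (adjusted p = 0.0502) and without serum shControl array 1 or shCDK8 array 1 after serum (0.0574 and 0.0527). The lower ones also included IDH3A, a subunit of isocitrate dehydrogenase (-0.52 and -0.49), and SDHD, a subunit of succinate dehydrogenase (-0.54 at both times). The size of the SDHD fall depended on the processing. Among the alternative settings it was as small as -0.34 in starved cells and -0.38 after serum. The higher one was IDH2 (0.54 and 0.42), another isocitrate dehydrogenase. Its call after serum ended without serum shControl array 1 or shCDK8 array 2 (change 0.36 in each case). Of 15 measured genes of the pentose, glycogen and hexosamine routes, 13.3% were higher and 6.67% lower in starved cells. After serum 6.67% were higher and 13.3% lower, beside the shares of all genes given above. GBE1, the glycogen branching enzyme, was lower at both times (-0.46 and -0.44), and is also counted among the further hypoxia-inducible genes. PYGB, a glycogen phosphorylase, was higher (0.24 and 0.34), but the call ended without any 1 of the 8 arrays in starved cells (adjusted p 0.0635 to 0.248) and without serum shControl array 1 or shCDK8 array 2 after serum (0.0825 and 0.0656). PGLS, an enzyme of the pentose phosphate pathway, was higher in starved cells (0.40; the call ended without shControl array 1 or shCDK8 array 2, adjusted p 0.102 and 0.113). RPIA, of the same pathway, was lower after serum (-0.31; the call ended without any 1 array other than serum shControl array 1, adjusted p 0.0512 to 0.285). Of 13 relatives of the collagen-modifying members, LOXL2 (0.68 and 0.74) and P3H1 (0.30 and 0.52) were higher and PLOD1 (-0.34 and -0.28) was lower. At each time that is 15.4% higher and 7.69% lower. Among all genes 7.13% and 7.70% were higher and 6.28% and 6.54% lower, and in so short a list each call is a large share. The starved call of LOXL2 ended without shControl array 2 or shCDK8 array 2 (adjusted p 0.0631 and 0.0528), and those of P3H1 and PLOD1 without shControl array 1 or either shCDK8 array (0.0671 to 0.132). After serum the PLOD1 call ended without either shControl array or shCDK8 array 1 (0.119 to 0.179).

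**Figure D4:**
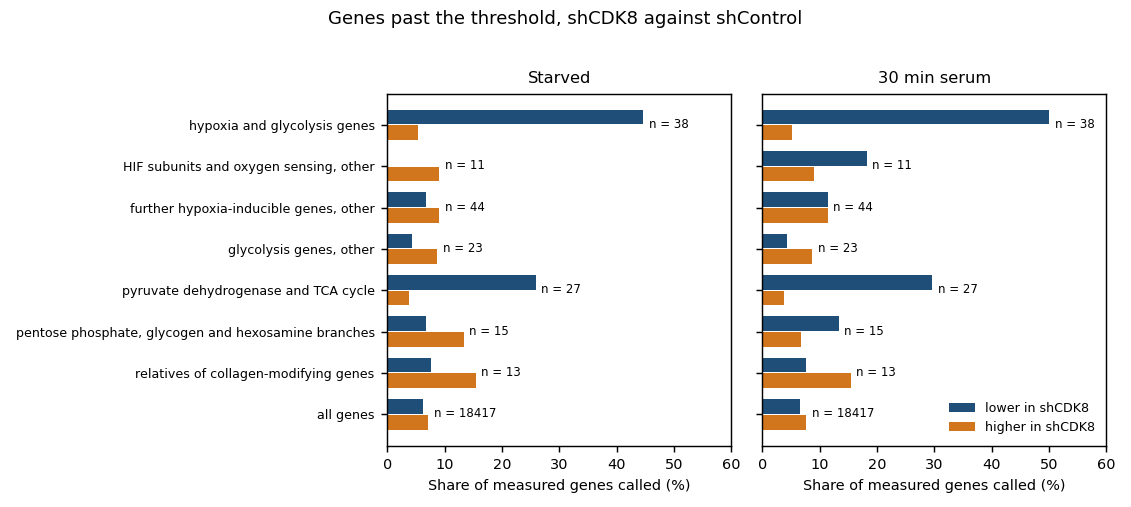
Share of measured genes called higher or lower in shCDK8 against shControl cells (percent, horizontal axis) for the members, the 6 related lists and all genes, in starved cells and after serum. The members' bar for lower genes reaches 44.7% and 50.0%, against 6.28% and 6.54% of all genes. The members and lists were chosen with earlier results of these data known.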

How the data were processed

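The 8 HCT116 samples were profiled as total RNA, each on an Affymetrix human gene array. The deposited values are log2 summaries of each probe set from RMA, which corrects for background, equalises the arrays' distributions and combines probes, per the submitters' processing notes. The RMA version, and whether 1 run covered all arrays, is not given in the sources used. Precision is limited by the number of arrays. Of 33297 probe sets in all, 19460 had 1 gene in the array annotation, 1754 had several and 12083 were not listed. Symbols were checked through Entrez identifiers against RefSeq (GRCh38.p14): 19429 matched and 0 changed. Of several probe sets of a gene (769 genes), the brightest was used, which gave 18417 genes. Probe sets with several genes or none were fitted separately.

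Deposited values were used unfiltered. In limma 3.58.1 (R 4.3.3), 1 mean per group was fitted (4 residual degrees of freedom, prior 5.49), and two-sided p-values of each of 5 contrasts were adjusted over the 18417 genes (Benjamini-Hochberg); genes under 0.05 passed. On simulated data for the comparison of the starved lines (18417 genes, 50 shifted per size), it recovered 76% of genes shifted by 0.5 and 96% of those shifted by 1 (log2). Far fewer genes were shifted there than the 2470 called in the starved comparison, so these rates may not hold for the data. Motifs were searched on both strands of the 250 bases before each RefSeq start; 5 members had no window. All measured members are named, and of each related list up to 4 genes with the largest changes past the threshold per comparison. Promoters shown follow the largest changes in starved cells. The members and lists were chosen with earlier results of these data known. The fit was repeated with an intensity trend, with only the arrays compared, with replicate number as a block, with genes over the 25th percentile of level, after cyclic loess or median centring, with a gene's probe sets averaged, against a 1.5-fold minimum, and without each array in turn. Same-numbered arrays of different groups had deviations that correlated at -0.186 to 0.126, so the numbers were not taken to pair the samples. Figures were drawn with matplotlib 3.10.9.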

Additional observations from a re-analysis of the deposited data

How the results depend on the processing

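No change reversed among the genes followed through the alternatives, which were the called members and the named list genes with EGLN1 and PFKFB3; members called at no time were followed only as counts of calls. With a minimum change of 1.5-fold, 1 member was higher and 0 lower in starved shCDK8 cells, 1 was higher and 1 (P4HA1) lower after serum, and 0 rose with serum in shControl cells; over all genes the calls between the lines fell to 155 in starved cells and 176 after serum, in place of 2470 and 2624. Leaving out each array in turn gave 9 to 14 lower members in starved cells, 12 to 19 lower after serum, and 1 to 2 that rose with serum in shControl cells. With the compared arrays alone, 1 member rose with serum in shControl cells. Of the members called, 11 of 19 in starved cells, 14 of 21 after serum and 1 of 2 with serum in shControl cells were called under every alternative other than the minimum change. The replicate number as a block gave 15 lower members in starved cells, where BNIP3L (adjusted p = 0.0651) and TPI1 (0.0549) no longer passed, and 19 after serum; the numbers are not shown to pair samples. With genes above the 25th percentile, LOX was not tested. With 2 arrays per group, changes near 0.3 pass or miss on 1 array. Some larger changes between the lines did so too, such as LOXL2 in starved cells (0.68) and EDN1 after serum (0.67). A member that missed is not shown to be unchanged.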
